A study of Mus musculus with 12 samples.

Results

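The interferon-gamma induced GTPases are a set of 9 genes that cells switch on when interferon-gamma reaches them. The set holds 5 guanylate-binding proteins (Gbp2, Gbp3, Gbp5, Gbp6 and Gbp7) and 4 immunity-related GTPases (Igtp, Irgm1, Irgm2 and Iigp1). The genes were chosen by name, and each was read from the probe set that the platform annotation pairs with its symbol alone, or from the one of highest mean where there were several. Of the 9 genes, 7 were measured in this way, among 30142 genes in all. Gbp5 shared its only probe set with Gbp2b, and Gbp6 shared its with Gbp10, so neither is given a value.

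Tumours of the pancreas from 12 mice were profiled on 12 one-colour expression arrays, with 3 mice in each of 4 groups. All mice were PKT, the name of a mouse model of pancreatic cancer, whose alleles the labels do not spell out. The FAP-TK control and FAP depleted groups make up the FAP line, and the aSMA-TK control and aSMA depleted groups the aSMA line. FAP is fibroblast activation protein, aSMA is alpha smooth muscle actin, and TK is a thymidine kinase that makes cells carrying it sensitive to ganciclovir. The labels give ganciclovir at 50 ug per kg for all 12 mice and mark the controls as not depleted, so it is not clear whether the controls received it. They do not state the promoter behind each TK gene, or the age or sex of the mice. The labelling kit named is one for Illumina arrays, whereas the probe set names are of the Affymetrix kind.

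Interferon-gamma is made mainly by T and NK cells. It binds a receptor built from Ifngr1 and Ifngr2, which signals through the kinases Jak1 and Jak2. Genes that respond carry gamma-activated sequences or interferon-stimulated response elements, and the factor Irf1 binds the latter. The GTPases made in response gather on the membranes around intracellular microbes and help to break them, and the Irgm proteins keep the other immunity-related GTPases off the cell's own membranes. Type I interferons raise many of the same genes through factors that include Stat2 and Irf9. In bulk tumours, fewer cells of a type and less RNA per cell cannot be told apart.

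The promoters are shown because the members share a motif of interferon-responsive genes before their starts, and some hold a second. The core of an interferon-stimulated response element, read as GAAA, any 2 bases and GAAA again, and a gamma-activated sequence, TTCNNNGAA, were searched on both strands of the 250 bases before each start in the RefSeq table of GRCm38.p6. The table held promoters for 7 of the 9 genes, Gbp6 and Iigp1 being the others. Each line below gives the last 120 bases before the start, on the gene's strand, with matches of either motif in capitals.
Gbp2, chr3:142620543-142620662, plus strand: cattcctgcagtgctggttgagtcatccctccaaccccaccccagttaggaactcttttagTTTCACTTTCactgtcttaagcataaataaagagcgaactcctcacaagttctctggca
Gbp3, first of 2 starts, chr3:142559924-142560043, plus strand: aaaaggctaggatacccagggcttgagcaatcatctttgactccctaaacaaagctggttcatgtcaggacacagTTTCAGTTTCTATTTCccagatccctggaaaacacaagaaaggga
Gbp7, chr3:142530216-142530335, plus strand: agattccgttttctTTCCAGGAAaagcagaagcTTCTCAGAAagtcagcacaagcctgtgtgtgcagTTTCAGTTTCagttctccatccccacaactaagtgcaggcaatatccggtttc
Igtp, chr11:58199436-58199555, plus strand: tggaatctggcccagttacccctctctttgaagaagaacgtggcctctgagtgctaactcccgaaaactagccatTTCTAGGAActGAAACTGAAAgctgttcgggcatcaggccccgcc
Irgm2, chr11:58214857-58214976, plus strand: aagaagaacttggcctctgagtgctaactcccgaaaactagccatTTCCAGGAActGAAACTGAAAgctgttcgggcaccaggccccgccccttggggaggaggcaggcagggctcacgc
Irgm1, chr11:48871421-48871540, minus strand: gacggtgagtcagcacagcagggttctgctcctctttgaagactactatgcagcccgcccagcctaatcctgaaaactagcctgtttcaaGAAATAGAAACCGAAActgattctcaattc

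All 7 genes with a promoter held the response element core in the 250 bases (7 of 8 promoters, that of the second start of Gbp3 being the other), against 978 of 32851 promoters in the table (2.98%). Gbp5, Gbp7, Igtp and Irgm2 also held a gamma-activated sequence, which 7.02% of all promoters held, and 0.332% of all promoters held both. In Gbp2, Gbp3, Gbp5 and Gbp7 the core lay on the strand opposite the gene, so that in the lines of Gbp2, Gbp3 and Gbp7 it reads as TTTC repeats. That of Gbp5 lay at -165 to -156, farther from the start than the bases printed for the others. In the 3 immunity-related GTPases with a promoter it lay on the gene's strand. Igtp and Irgm2, which lie side by side on chromosome 11, held the same pair of motifs with 2 bases between them in both genes, the gamma-activated sequence first. Their promoters also shared an unbroken run of 55 identical bases, at -181 to -127 in Igtp and -215 to -161 in Irgm2. Irgm1 held 2 overlapping cores at -30 to -15 and no gamma-activated sequence in this window. Gbp5, Gbp7 and Gbp3 follow one another on chromosome 3, where Gbp2 also lies. A match is a description of the letters, not a measured binding site. Of the other interferon-induced GTPases with a promoter in the table, 4 of 5 held the core, against 7 of 17 type I interferon targets, 3 of 12 interferon-gamma signalling genes, 2 of 16 other interferon-gamma targets and 0 of 8 macrophage markers.

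**Figure D1:**
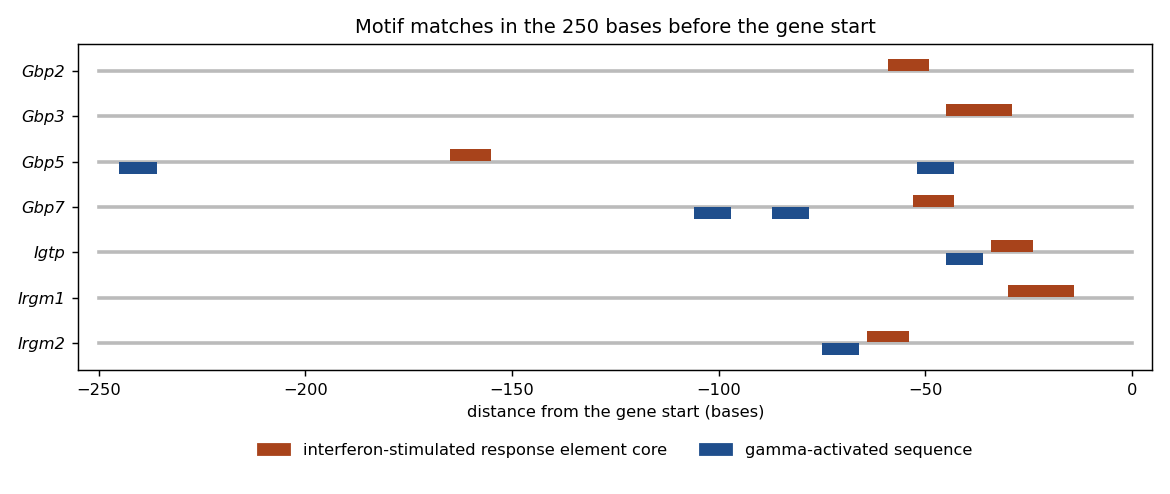
Position of each motif match in the 250 bases before the gene start of the 7 genes with a promoter in the table, in bases from the start (x axis). The core of the interferon-stimulated response element (above each line) lies within 64 bases of the start in every gene but Gbp5, and 4 genes also hold a gamma-activated sequence (below the line).

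The arrays of the lines differed before any gene was compared. The median of the negative-control probe sets was 5.46 to 6.49 on the FAP line's arrays and 4.46 to 4.88 on those of the aSMA line. That of the 23 background probe sets was 2.81 to 3.05 and 2.70 to 2.98. Line and the negative-control level of the arrays cannot be told apart. The arrays FAP-TK control 1, FAP-TK control 3 and FAP depleted 2 had the smallest gaps between positive and negative controls, at 2.69 to 2.99 against 4.32 to 4.89 on the other 9. Fap itself was at 6.56, 7.31 and 6.53 in FAP-TK control tumours, against 5.52, 5.34 and 6.21 after FAP depletion. Acta2, which encodes aSMA, was at 12.26, 10.85 and 11.12 in the aSMA-TK controls and at 10.13, 13.86 and 15.28 in those labelled aSMA depleted, so that group is called by its label here. Krt8 and Krt18, keratins of the ductal epithelium, were at 15.19 to 18.73 on every array. All levels here are log2 values after quantile normalization, and tumours are listed in replicate order.

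The guanylate-binding proteins had their highest group means in the aSMA-TK controls. Gbp2, which helps to destroy vacuoles that hold parasites, was at 6.18, 7.64 and 6.34 for FAP-TK controls, 6.81, 6.12 and 7.33 after FAP depletion, 7.24, 9.88 and 10.25 in the aSMA-TK control and, in tumours labelled aSMA depleted, 7.32, 8.08 and 6.82. Replicates 2 and 3 of the aSMA-TK control group stood above all other tumours, while replicate 1 of that group was within the range of the tumours labelled aSMA depleted. Gbp3 was at 4.78, 5.20 and 4.59 in the FAP-TK control, 4.78, 4.55 and 4.96 in the FAP depleted, 5.47, 6.59 and 6.29 in the aSMA-TK control and, in tumours labelled aSMA depleted, 5.67, 5.72 and 5.20. The same aSMA-TK control tumours led. The lowest tumour of the aSMA line (5.203) was all but level with the highest of the FAP line (5.195). Gbp7, a protein of phagosome membranes, was at 8.13, 9.03 and 7.42 in the FAP-TK control, 7.62, 6.87 and 7.56 in the FAP depleted, 7.73, 8.86 and 8.91 in the aSMA-TK control and 9.32, 8.38 and 7.51 in those labelled aSMA depleted. Its highest tumour was replicate 1 of the group labelled aSMA depleted, and its control and depleted tumours overlapped in both lines.

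The immunity-related GTPases had a like order in the 12 tumours. Igtp, a regulator also known as Irgm3, was at 4.33, 5.57 and 4.67 in the FAP-TK control, 4.97, 4.38 and 5.10 in the FAP depleted, 5.80, 7.71 and 7.25 in the aSMA-TK control and, in tumours labelled aSMA depleted, 6.22, 5.91 and 5.58. As for Gbp3, the lowest tumour of the aSMA line (5.58) was all but level with the highest of the FAP line (5.57). Irgm1, the regulator needed by macrophages against mycobacteria, was at 5.97, 7.14 and 6.17 in the FAP-TK control, 7.00, 5.96 and 6.50 in the FAP depleted, 6.97, 8.14 and 7.91 in the aSMA-TK control and, in tumours labelled aSMA depleted, 7.52, 6.79 and 6.80. Irgm2, which restrains the inflammatory caspase encoded by Casp4, was at 4.49, 5.64 and 4.95 in the FAP-TK control, 4.85, 4.09 and 5.04 in the FAP depleted, 4.71, 5.68 and 5.62 in the aSMA-TK control and 5.70, 4.83 and 4.64 in those labelled aSMA depleted. Its groups all overlapped, over a range of 1.60, the narrowest of the 7 genes. Iigp1, an effector that coats parasite vacuoles, was at 4.18, 4.66 and 4.71 in the FAP-TK control, 4.51, 4.25 and 4.26 in the FAP depleted, 4.30, 7.81 and 5.59 in the aSMA-TK control and, in tumours labelled aSMA depleted, 5.34, 4.99 and 4.54. A single tumour, aSMA-TK control replicate 2, set most of its range of 3.64.

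**Figure D2:**
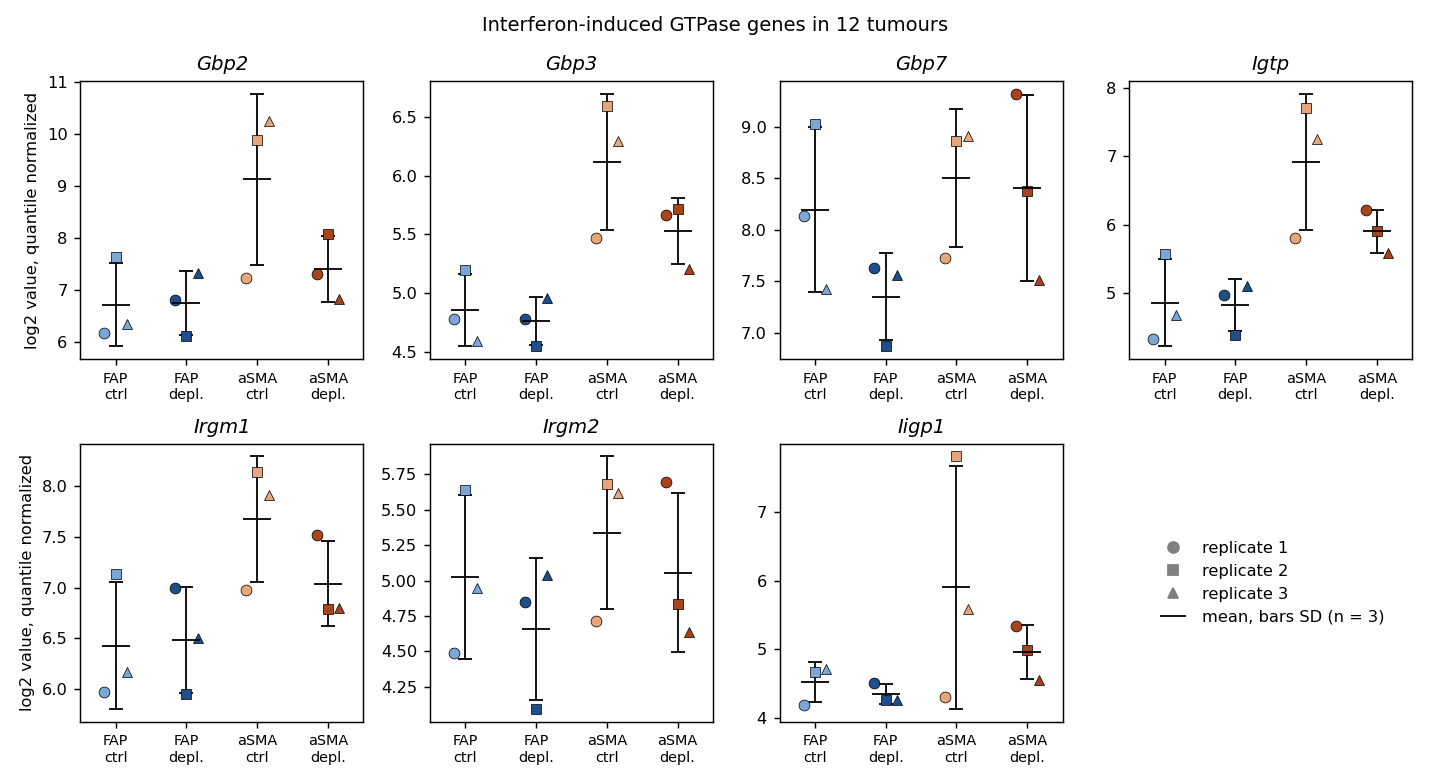
Quantile-normalized log2 value (y axis, scaled per gene) of the 7 measured GTPase genes in each tumour, by group (x axis: control and depleted tumours of each line). Horizontal lines are group means with SD bars (n = 3). Replicates 2 and 3 of the aSMA-TK control group are the highest of all tumours for Gbp2, Gbp3, Igtp, Irgm1 and Iigp1.

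Several of the members were dim. On the values as deposited, Gbp2 and Gbp7 were above the array's negative-control median on 12 of 12 arrays and Irgm1 on 11. Igtp was above it on 7 arrays, Gbp3 on 6, and Irgm2 and Iigp1 on 4 each. For Gbp3 these were the 6 arrays of the aSMA line, and for Igtp 6 of the aSMA line and 1 of the FAP line. In the FAP line Irgm2 was above that median on 1 array and Iigp1 on 0. Most of the FAP line's levels of these genes thus lie below that negative-control median. On the FAP line's arrays it also exceeded the median of all gene probe sets, which was 4.41 to 4.65. The background probe sets of those arrays had medians of 2.81 to 3.05, and the highest of them stood at 5.41 to 6.38. Lying below the negative-control median is therefore not the same as being undetected. Above the 95th percentile of the negative controls, Gbp2 stood on 2 arrays, Gbp7 on 1 and the other 5 genes on 0.

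Depletion in the FAP line was compared first, to ask what differs in tumours labelled FAP depleted. No member passed the test. In limma's moderated test over all 12 arrays, 0 of 7 members were called at an adjusted p under 0.05, against 0 of all 30142 genes (0%). At an unadjusted p under 0.05 there were 0 members and 3.71% of all genes, and an unmoderated test of these groups alone called 0 genes. FAP depleted minus FAP-TK control was below 0 for 5 of 7 members, with a median of -0.09, while the median over all genes was 0.04 and 40.1% of genes were below 0. The widest difference was that of Gbp7, at -0.84 ± 0.54 (SE; group means 8.19 ± 0.80 and 7.35 ± 0.42, SD, n = 3; 95% interval -2.05 to 0.36; adjusted p = 1.00). Gbp2 differed by 0.03 ± 0.75 (95% interval -1.65 to 1.72), and it was below 0, at -0.10, with the values as deposited and with median centring. Irgm1 differed by 0.06 ± 0.41, and by -0.058 and -0.059 under those scalings. For Igtp the difference was -0.04 ± 0.48, for Gbp3 -0.09 ± 0.28, for Irgm2 -0.36 ± 0.41 and for Iigp1 -0.18 ± 0.69. Without FAP-TK control replicate 2, the highest of its group for all members but Iigp1, Gbp3 was at 0.076 and Igtp at 0.32. Left out one at a time, FAP-TK control 1 or 3 or FAP depleted 1, 2 or 3 also turned the sign of at least 1 of Gbp2, Gbp3, Igtp and Irgm1. Control and depleted tumours overlapped for all 7 members, whereas 8.1% of all genes had groups that did not.

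In the aSMA line every member was lower on average in the tumours labelled aSMA depleted, and none passed the test. The differences were below 0 for 7 of 7 members, with a median of -0.64, against a median of 0.01 over all genes, of which 46.8% were below 0. Gbp7 is the exception to this direction under other scalings, at 0.045 with the values as deposited and at 0.12 with median centring. In limma 0 of 7 members were called, against 0 of 30142 genes (0%), and 1 member and 4.81% of all genes were at an unadjusted p under 0.05. The unmoderated test of these groups called 0 genes. Control and depleted tumours overlapped for all 7 members, against 12.5% of genes with no overlap.

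The largest of these differences was that of Gbp2, from 9.12 ± 1.65 to 7.41 ± 0.63 (SD, n = 3), a difference of -1.72 ± 0.75 (SE; 95% interval -3.41 to -0.03; unadjusted p = 0.0466, adjusted p = 0.944 in limma; exact permutation p = 0.3). It ran from -2.65 without aSMA-TK control replicate 1 to -1.15 without replicate 3 of the same group. Igtp differed by -1.02 ± 0.48 and Gbp3 by -0.59 ± 0.28. Their 95% intervals were -2.09 to 0.06 and -1.22 to 0.04. Iigp1 differed by -0.94 ± 0.69, which rested on aSMA-TK control replicate 2, since without that tumour it was 0.015. Irgm1 differed by -0.64 ± 0.41 and Irgm2 by -0.28 ± 0.41. For Gbp7 the difference was -0.09 ± 0.54, and it was above 0 without aSMA-TK control 2 (0.087), aSMA-TK control 3 (0.11) or the tumour labelled aSMA depleted 3 (0.35). With 3 tumours against 3, an exact two-sided permutation test cannot give a p below 0.1.

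Whether the difference between depleted and control tumours was unlike in the lines was tested as an interaction, and no member was called. The count was 0 of 7 members and 0 of 30142 genes (0%) in limma, with 0 members and 5.96% of all genes at an unadjusted p under 0.05. Gbp2 had the largest difference of effects, aSMA line minus FAP line, at -1.75 ± 1.07 (adjusted p = 0.852). For Igtp it was -0.98 ± 0.68, for Iigp1 -0.77 ± 0.97, for Irgm1 -0.69 ± 0.58 and for Gbp3 -0.50 ± 0.40. Gbp7 was at 0.75 ± 0.76 and Irgm2 at 0.08 ± 0.58. The 95% interval of Gbp2 ran from -4.14 to 0.64.

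The levels of the lines were then compared, first between the control groups. Gbp3 and Igtp were higher in the aSMA-TK controls, with line and the arrays' negative-control level not to be told apart. They were the only members called (2 of 7, against 7.8% of all genes, 4.78% called higher and 3.02% lower). Gbp3 stood at 4.85 ± 0.31 in the FAP-TK control and 6.12 ± 0.58 in the aSMA-TK controls (SD, n = 3), a difference of 1.27 ± 0.28 (SE; adjusted p = 0.0311 in limma; exact permutation p = 0.1). Igtp stood at 4.86 ± 0.64 and 6.92 ± 1.00, a difference of 2.06 ± 0.48 (adjusted p = 0.0354 in limma; exact permutation p = 0.1). These were the members whose control groups did not overlap, a state that 21.3% of all genes shared in the same direction. Gbp2 was 2.40 ± 0.75 higher on average (adjusted p = 0.0779), Iigp1 1.39 ± 0.69 (0.219) and Irgm1 1.24 ± 0.41 (0.0889), and these missed the threshold. Gbp7 differed by 0.31 ± 0.54 and Irgm2 by 0.31 ± 0.41. All 7 differences were above 0, with a median of 1.27 against 0.07 over all genes, of which 58.2% were above 0. On the values as deposited, where the median over all genes was -0.39, Gbp7 was at -0.62 and Irgm2 at -0.39, and with median centring Gbp7 was at -0.18. Of the genes called, 61.3% were higher in the aSMA-TK controls after quantile normalization, 3.41% on the values as deposited and 57.9% with median centring.

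The calls of Gbp3 and Igtp did not survive every choice. Without the 3 arrays of small control-probe gap Gbp3 was at 0.91 (adjusted p = 0.281 in limma) and Igtp at 1.35 (adjusted p = 0.314), and with that gap as a covariate they were at 1.06 (0.115) and 1.57 (0.134). The adjusted p of Gbp3 was 0.0816 without FAP-TK control 1, 0.0977 without FAP-TK control 3, 0.0512 without FAP depleted 1, 0.0979 without aSMA-TK control 2 and 0.0785 without aSMA-TK control 3. For Igtp it was 0.0997, 0.101, 0.0553, 0.111 and 0.0859 without the same tumours, and 0.0517 without the tumour labelled aSMA depleted 2. A fit of the control groups alone gave 0.0983 for Gbp3 and 0.111 for Igtp, and the unmoderated test 0.171 and 0.193. Gbp3 also missed the threshold on the values as deposited (0.52, adjusted p = 0.0941), and Igtp with an offset of 50 added on the linear scale (1.14, adjusted p = 0.0572). The adjusted p over all settings spanned 0.012 to 0.281 for Gbp3 and 0.014 to 0.314 for Igtp, and neither difference changed sign.

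Between the depleted groups, all 7 members were again higher on average in the aSMA line and none was called, while 5.18% of all genes were. The median difference, labelled aSMA depleted minus FAP depleted, was 0.65, against 0.04 over all genes, of which 55.2% were above 0. At an unadjusted p under 0.05 there were 2 members and 24.6% of all genes, and the unmoderated test called 0 genes. Igtp differed by 1.08 ± 0.48 (adjusted p = 0.201 in limma), Gbp7 by 1.05 ± 0.54, Gbp3 by 0.77 ± 0.28 (adjusted p = 0.135), Gbp2 by 0.65 ± 0.75, Iigp1 by 0.62 ± 0.69, Irgm1 by 0.55 ± 0.41 and Irgm2 by 0.40 ± 0.41. Groups did not overlap for Gbp3, Igtp and Iigp1, a state that 18.2% of all genes shared in this direction. On the values as deposited Gbp2, Irgm1 and Irgm2 were below 0, at -0.070, -0.18 and -0.19. A test for any difference among the 4 groups called Gbp3 (adjusted p = 0.0434) and, just past the threshold, did not call Igtp (adjusted p = 0.0556), with 6.68% of all genes called.

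**Figure D3:**
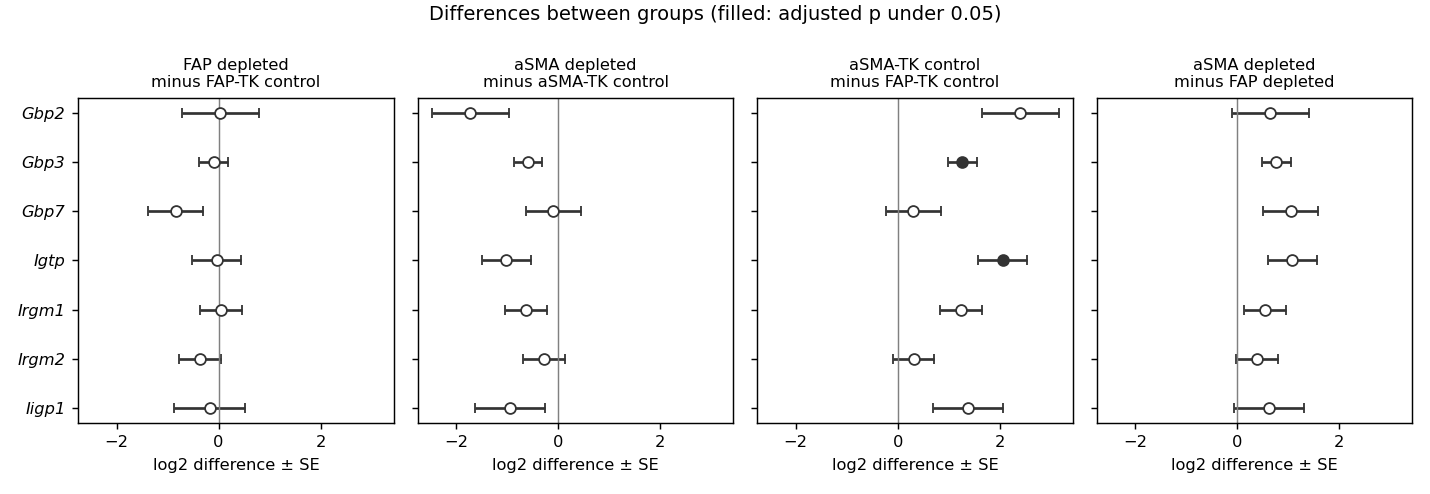
Differences between group means for the 7 GTPase genes on the log2 scale (x axis), with SE bars from limma, for each of the 4 comparisons of groups. Filled points passed an adjusted p under 0.05. All 7 points lie below 0 in the aSMA line's depletion comparison without passing the test, and only Gbp3 and Igtp are filled, in the comparison of the control groups.

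The members were high and low in much the same tumours. Over the 12 tumours all 21 pairs of members had a positive Pearson correlation, from 0.58 for Gbp7 with Iigp1 to 0.98 for Gbp3 with Igtp, with a median of 0.78. Spearman's rho ran from 0.56 to 0.97. As the lines stand apart, the same pairs were read within each line of 6 tumours, where r had a median of 0.76 in the FAP line (0.20 to 0.97) and 0.82 in the aSMA line (0.55 to 0.98). After each group's mean was taken off, all 21 pairs were still positive, from 0.48 to 0.93. Without aSMA-TK control 2 and 3, the tumours farthest from the median of the members' mean, r ran from 0.50 to 0.95. The pairs share their arrays, normalization and array background, and these correlations are given as a description.

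The members' mean level, in log2 units, placed the tumours in one order. It was 5.44, 6.41 and 5.55 for FAP-TK controls, 5.79, 5.17 and 5.82 after FAP depletion, 6.03, 7.81 and 7.40 in the aSMA-TK control and 6.73, 6.39 and 5.87 in those labelled aSMA depleted. The aSMA-TK control group thus held both the highest tumours and, in replicate 1, one below 2 of the 3 labelled aSMA depleted. The lowest 3 tumours, FAP depleted 2, FAP-TK control 1 and FAP-TK control 3, were those whose arrays had the small control-probe gap. The part of that gap in the order within the FAP line was not tested beyond the settings given above.

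Of the interferon-gamma pathway, 13 listed genes are described. In the FAP line 0 of 13 were called and 8 were above 0 (median 0.03), and in the aSMA line 0 of 13 were called and 8 were above 0 (median 0.08). Ifng, which encodes interferon-gamma, was near the floor of the arrays at 3.28 to 3.76 in all 12 tumours. It was at 3.54, 3.30 and 3.40 in the aSMA-TK control and, in tumours labelled aSMA depleted, 3.76, 3.63 and 3.61, groups that did not overlap (0.26 ± 0.09, unadjusted p = 0.0158, adjusted p = 0.944 in limma). Thus the group with the lower mean of the GTPases had the higher Ifng, within that narrow range. The receptor gene Ifngr1 differed by 0.77 ± 0.43 in the aSMA line and 0.34 ± 0.43 in the FAP line, and Ifngr2 by -0.50 ± 0.41 and -0.06 ± 0.41. The kinase genes Jak1 and Jak2 differed by 0.08 ± 0.36 and 0.51 ± 0.49 in the aSMA line.

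Among the transcription factors, Stat2 was at 7.72, 8.57 and 8.74 in the aSMA-TK controls and 7.63, 7.60 and 7.47 in those labelled aSMA depleted. The groups did not overlap, and the difference of -0.77 ± 0.31 was not called (adjusted p = 0.944 in limma). Irf1, the direct activator of these GTPases, was at 6.89, 7.81 and 7.99 against 7.01, 7.25 and 6.61, a difference of -0.61 ± 0.35. Irf2, a factor that competes with Irf1 for its sites, was at 7.48, 8.05 and 8.11 in the FAP-TK controls, below the FAP depleted at 8.45, 9.32 and 8.67 (0.93 ± 0.27, adjusted p = 1.00). It was higher in the aSMA-TK control than in the FAP-TK controls (1.03 ± 0.27, adjusted p = 0.0470), the only one of the 13 called there (7.8% of all genes were), and it kept that call in 5 of 23 other settings. Irf8 and the feedback inhibitor Socs1 differed by 0.03 ± 0.27 and 0.12 ± 0.12 in the aSMA line.

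The other GTPases of this kind leaned the way of the members without a call. Of 13 such genes 8 were measured, and they were below 0 in 8 of 8 in the aSMA line (median -0.23) and in 7 of 8 in the FAP line (median -0.16). Gbp4 was at 6.43, 8.60 and 6.85 in the aSMA-TK controls and at 7.35, 6.51 and 5.92 in those labelled aSMA depleted, a difference of -0.70 ± 0.51. Mx1, an antiviral GTPase, differed by -0.22 ± 0.11 in the aSMA line and -0.11 ± 0.11 in the FAP line. It was near the floor of the arrays, at 3.81 to 4.22 over the 12 tumours. So were Mx2 (4.08 to 4.45) and Gm12250 (2.68 to 3.79), which are counted among the 8. Gbp9 differed by -0.48 ± 0.51 in the FAP line. Between the control groups 7 of 8 were higher in the aSMA line (median 0.43), and none was called.

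Targets of interferon-gamma that are no GTPases were not called in either line. Of 22 measured, 13 were below 0 in the FAP line (median -0.07) and 14 in the aSMA line (median -0.03). Cxcl9, a chemokine that draws in T cells, was at 3.65, 6.06 and 5.81 in the aSMA-TK controls, 5.60, 3.95 and 3.72 in those labelled aSMA depleted and 3.40 to 3.63 in all 6 tumours of the FAP line. Its high tumours in the aSMA-TK control group were replicates 2 and 3, as for the members. Ido1, an enzyme of tryptophan breakdown, was at 3.91, 5.12 and 5.38 against 4.08, 4.02 and 3.90 in the aSMA line (-0.80 ± 0.31). Serping1, a complement inhibitor that stromal cells also make, went the other way, at 12.67, 11.98 and 12.16 against 13.71, 14.11 and 15.36 (2.12 ± 1.03, adjusted p = 0.944). In the FAP line the inflammatory caspase genes Casp4 and Casp1 differed by -1.30 ± 0.49 and -1.13 ± 0.70.

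Between the control groups 19 of these 22 targets were above 0 (median 0.51), against 58.2% of all genes. Cxcl10 and H2-Eb1 were called, 2 of 22, a share near the 7.8% of all genes called in this comparison. Cxcl10, another T cell chemokine, was 0.56 ± 0.12 higher in the aSMA-TK controls (adjusted p = 0.0293 in limma), and H2-Eb1, a chain of MHC class II, was 2.25 ± 0.57 higher (adjusted p = 0.0445). Both were called between the depleted groups too, at 0.53 ± 0.12 (adjusted p = 0.0402) and 2.81 ± 0.57 (adjusted p = 0.0281). Those calls held in 8 of 23 other settings for Cxcl10 (adjusted p = 0.343 as deposited) and 15 of 23 for H2-Eb1, and both were lost without the 3 arrays of small control-probe gap (0.119 and 0.110). The calls between the controls held in 14 of 23 other settings for Cxcl10 and 9 of 23 for H2-Eb1. Cxcl10 was near the floor of the arrays, at 3.17 to 4.04 over the 12 tumours.

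Type I interferon targets were mostly lower on average in the tumours labelled aSMA depleted, as the members were. Of 19 measured, 17 were below 0 in the aSMA line (median -0.41) and 12 in the FAP line (median -0.10), with 0 called in either. Ifit1, an RNA-binding antiviral protein, was at 5.95, 7.34 and 6.29 in the aSMA-TK controls and at 5.21, 5.58 and 5.27 in those labelled aSMA depleted. These groups did not overlap, and the difference of -1.17 ± 0.31 had an unadjusted p of 0.00366 and an adjusted p of 0.944 in limma. Oas2, an RNA sensor, differed by -1.58 ± 0.56 in the aSMA line. Between the control groups 18 of 19 were higher in the aSMA line (median 0.82), with Ifit1 (1.90 ± 0.31, adjusted p = 0.0123) and Cmpk2 (0.65 ± 0.15, adjusted p = 0.0341) called, 2 of 19 against 7.8% of all genes. The call of Ifit1 held when any single tumour was left out (12 of 12), and that of Cmpk2 in 8 of 12. Cmpk2 was near the floor of the arrays, at 3.69 to 4.68 over the 12 tumours.

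**Figure D4:**
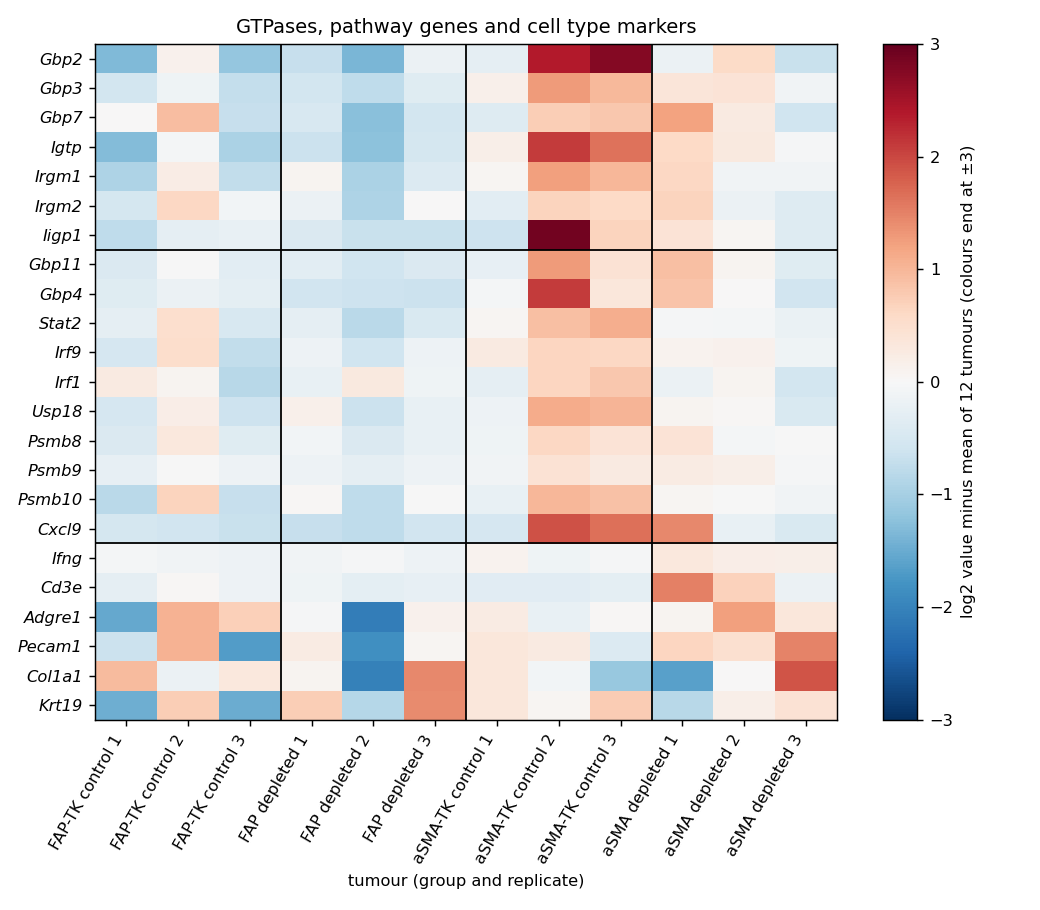
Log2 value minus the mean of the 12 tumours (colour, ending at ±3) for the 7 GTPases, 10 related pathway genes, and Ifng with markers of other cells (rows) in each tumour (columns). The columns of aSMA-TK control 2 and 3 are the reddest for Gbp2, Gbp3, Igtp, Irgm1 and Iigp1 and for Stat2, Usp18, Psmb10 and Cxcl9, while Ifng and Cd3e are not raised there (Cd3d, a T cell marker that is not drawn, had r = 0.86 with the members' mean).

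Genes most like the members were sought by the correlation of their values with the members' mean over the 12 tumours. A first search kept the 3927 genes above the 95th percentile of the negative controls on at least 6 arrays. Its 10 nearest were Gm12312, Anp32b-ps1, Ctsc, Gm9174, Fut2, ND2, Efnb2, H2-K1, Adh1 and Gm12696, with r from 0.80 to 0.87. H2-K1, a heavy chain of MHC class I, had r = 0.81 over all tumours, 0.82 in the FAP line and 0.73 in the aSMA line. Ctsc, a lysosomal protease that activates the proteases of killer cells, had 0.84, 0.91 and 0.74. Anp32b-ps1, a pseudogene, had 0.84 overall but -0.02 within the FAP line. Without the filter on dim genes, a choice made after seeing the data, the 10 nearest were Tsga10, Psmb9, H2-Q4, Gm2986, Pilrb1, Usp18, Coq4, Nptx1, H2-K2 and Bcl2l12, with r from 0.94 to 0.96. Of these, Psmb9 is a subunit of the immunoproteasome, H2-Q4 and H2-K2 are MHC class I genes, and Usp18 is the deubiquitinase that damps type I interferon signalling. The median over all genes was 0.16, and 0.30 within the FAP line.

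The lists of interferon targets lay closer to the members over the tumours than the list of signalling genes. The median r with the members' mean was 0.83 over the 19 type I interferon targets, with 0.67 in the FAP line and 0.78 in the aSMA line, and 10 of the 19 were among the nearest 1% of all genes. These targets ranged from 0.22 to 0.94. The median was 0.75 over the 22 other interferon-gamma targets (-0.13 to 0.96), with 7 in the nearest 1%. It was 0.78 over the 8 other GTPases (0.41 to 0.92), with 3. Over the 13 interferon-gamma signalling genes it was 0.41 (-0.39 to 0.92), with 2 in the nearest 1%. Psmb8, Psmb10, Stat2 and Cxcl9, picked from the upper end of their lists, had 0.93, 0.90, 0.92 and 0.90. At the lower end of the interferon-gamma targets, Nos2, Casp4, Casp1 and Cxcl11 had -0.13, -0.03, 0.14 and 0.20. Irf1 had 0.92 in the aSMA line and -0.08 in the FAP line. For Ifng itself r was 0.09 over all tumours, -0.52 in the FAP line and -0.70 in the aSMA line.

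Markers of other cells were read beside the members. Macrophage markers had a median r of 0.81 with the members' mean in the FAP line, where 12 of 12 were positive, and -0.24 in the aSMA line, where 2 of 12 were. Fibroblast markers had 0.67 (9 of 9 positive) and -0.50 (0 of 9), and endothelial markers 0.88 (9 of 9) and -0.34 (0 of 9). Ductal genes had 0.43 (10 of 10) and -0.06 (4 of 10). Markers of dendritic and B cells had 0.68 (8 of 9) and 0.16 (6 of 9), and acinar genes -0.08 (2 of 9) and -0.35 (0 of 9). Over all genes the median was 0.30 in the FAP line and 0.01 in the aSMA line. In the FAP line the macrophage markers' mean level was 7.46 and 7.34 on the arrays FAP-TK control 1 and FAP depleted 2 and 10.09 to 10.91 on the other 4. In the aSMA line, where the members were lower on average in depleted tumours, 11 of 12 macrophage markers were above 0 (median 0.55) and 9 of 9 fibroblast markers (median 0.43), with none called. Whether these cells have a part in the members' levels was not tested.

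T and NK cell markers were near the floor of the arrays. The mean of the 16 measured was 3.78 to 4.00 for FAP-TK controls, 3.79 to 3.87 after FAP depletion, 3.85 to 3.99 in the aSMA-TK control and 3.83 to 4.37 in those labelled aSMA depleted. Cd3e, a subunit of the T cell receptor complex, was at 3.91, 3.90 and 3.96 in the aSMA-TK controls and at 5.75, 4.94 and 4.06 in those labelled aSMA depleted. In the aSMA line 9 of 16 markers were above 0 (median 0.04). The median r of the 16 with the members' mean was 0.45 over all tumours, 0.53 in the FAP line (14 of 16 positive) and 0.31 in the aSMA line (12 of 16). Markers of this list differed in it: Cd3d had r = 0.86 over all tumours and 0.92 in the aSMA line, among the nearest 1% of all genes, while Cd3e had 0.19 and -0.13. Eomes, Nkg7 and Klrb1c, genes of NK and killer T cells, had 0.72, 0.71 and 0.69 over all tumours. Other genes of these cells did not follow: Gzmb had 0.15, Tbx21 -0.07, Ncr1 -0.18, Klrk1 -0.33 and Prf1 -0.45. Cd3d and Cd3g stayed within 3.68 to 4.12 and 3.98 to 4.81 in all 12 tumours. Between the control groups the markers of dendritic and B cells Xcr1 and Cd79a were higher in the aSMA line (0.64 ± 0.10, adjusted p = 0.0123, and 0.84 ± 0.21, adjusted p = 0.0410, in limma). The ductal genes Krt7 and Cldn7 were higher too (1.58 ± 0.28, adjusted p = 0.0159, and 1.01 ± 0.24, adjusted p = 0.0363, in limma). These were 2 of 9 and 2 of 10 measured in their lists, against 7.8% of all genes called. Xcr1 was near the floor of the arrays, at 3.47 to 4.33 over the 12 tumours. Of the whole lists, 9 of 10 ductal genes (median 0.98), 9 of 9 endothelial markers (median 0.70) and 7 of 9 markers of dendritic and B cells (median 0.37) were above 0 between the controls. Between the depleted groups the endothelial markers were above 0 in 9 of 9 (median 0.82), with none called. The markers of dendritic and B cells were above 0 there in 9 of 9 (median 0.57). Xcr1 and Cd79a were called (adjusted p = 0.0204 and 0.0314 in limma), against 5.18% of all genes. In other settings the calls between the controls held in 19 of 23 for Xcr1, 8 of 23 for Cd79a, 17 of 24 for Krt7 and 11 of 23 for Cldn7. Each of the 9 list genes called between the controls lost its call without the 3 arrays of small control-probe gap (adjusted p from 0.0646 to 0.269). The part of these cells in the difference of Gbp3 and Igtp between the lines was not tested.

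**Figure D5:**
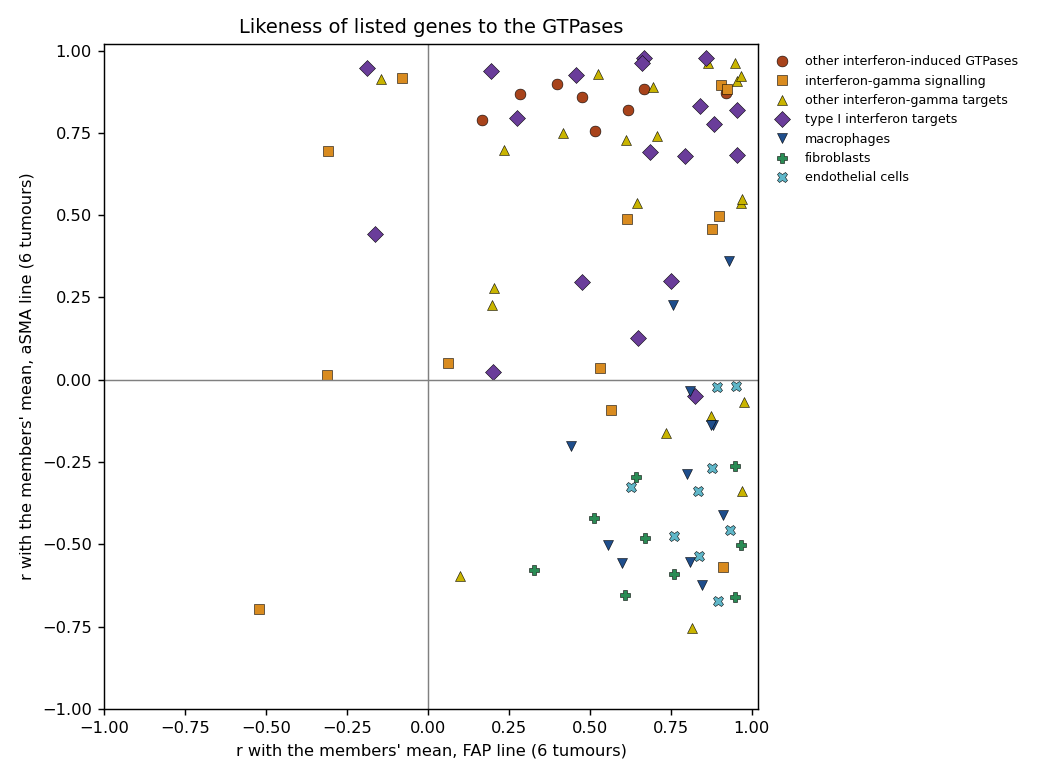
Pearson correlation of each listed gene with the members' mean within the 6 tumours of the FAP line (x axis) and within the 6 of the aSMA line (y axis). Other interferon-induced GTPases lie at the upper right, whereas all 9 fibroblast and all 9 endothelial markers lie at the lower right, positive in the FAP line and negative in the aSMA line.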

How the data were processed

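The authors deposited 1 table of processed array values, for 72688 probe sets on 12 arrays. Its unit, log2 intensity, was read from the values (1.64 to 19.93) and is not stated by the authors. Of tools, the submitters' processing notes list limma, with no version, and how background, probe sets and arrays were treated was not given in the sources used here.

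Control probe sets (6732) were set aside, and the remaining 65956 were quantile normalized between arrays, because the deposited medians differed between lines. Genes were named from the platform annotation where a probe set had exactly 1 symbol (30604 of 32750 listed, 2146 having several), and 827 symbols were updated through the RefSeq gene table of GRCm38.p6. The probe set of highest mean was kept per gene, with no filter on dim genes. Linear models of 1 mean per group over all 12 arrays were fitted with limma 3.58.1 and statmod 1.5.0 in R 4.3.3 (empirical Bayes, two-sided, Benjamini-Hochberg over 30142 genes, called at an adjusted p under 0.05). Exact permutation tests were also run in R, while correlations between pairs of members and promoter searches used Python 3.11.15 and scipy 1.17.1. The scripts were tested on simulated data.

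Each array is 1 mouse, and 3 per group limits the precision. Named genes are all members, 10 set pathway genes, the 2 of smallest p per list and depletion comparison, called list genes, the first 3 genes of each cell list where described, and the 10 genes most like the members; Gbp11, Irf9, Acta2 and the other genes compared by correlation were chosen after their values were seen. The members and lists were chosen with earlier results of these data known. Alternatives covered scaling, an offset, dim genes, probe sets, variance models, array quality, the groups fitted, the test, and each array left out.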

Additional observations from a re-analysis of the deposited data

How the results depend on the processing

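The 35 differences of members were recomputed under 24 settings, which gave 791 values. Of these 723 kept their direction and their side of the threshold, 43 changed sign, 21 lost a call and 4 gained one. No paired analysis was possible because the mouse numbers run from 1 to 12 and none is shared between groups. A filter on dim genes left 4518 genes and 0 members, and fitting only the groups compared or the unmoderated test has no value for the interaction or the 4-group test.

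Sign changes of members were as follows. On the values as deposited, FAP depleted minus FAP-TK control was -0.10 for Gbp2 and -0.058 for Irgm1, the aSMA line's difference was 0.045 for Gbp7, the control comparison -0.62 for Gbp7 and -0.39 for Irgm2, and the depleted comparison -0.070 for Gbp2, -0.18 for Irgm1 and -0.19 for Irgm2. With median centring, Gbp2 (-0.10) and Irgm1 (-0.059) changed sign in the FAP line, Gbp7 (0.12) in the aSMA line and Gbp7 (-0.18) between controls. With array weights, Gbp3 (0.10) and Igtp (0.23) did so in the FAP line and Irgm2 (-0.24) in the interaction. With the control-probe gap as a covariate, Gbp2 (-0.17) and Irgm1 (-0.12) did so in the FAP line and Gbp7 (-0.22) and Irgm2 (-0.23) between controls. Without the 3 arrays of small gap these values were -0.58, -0.39, -0.54 and -0.29. With 1 array left out, the FAP line gave -0.25 to 0.49 for Gbp2, -0.22 to 0.076 for Gbp3, -0.30 to 0.32 for Igtp and -0.20 to 0.41 for Irgm1. The aSMA line gave -0.55 to 0.35 for Gbp7 and -1.75 to 0.015 for Iigp1, the interaction -0.23 to 0.35 for Irgm2 and -1.57 to 0.19 for Iigp1, and the control comparison -0.079 to 0.72 for Gbp7. The causes were not tested.

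The count of 2 members called between controls was 0 to 3 with 1 array left out, 1 on the values as deposited, 1 with the offset, 4 with array weights (Gbp2 at 2.44 and Irgm1 at 1.33 joining), and 0 with the covariate, without the 3 arrays, with only the groups compared and with the unmoderated test. Gbp2 was also called without aSMA-TK control 1 (3.33) and Irgm1 without FAP-TK control 2 (1.60). The 2350 genes called there became 506 (without aSMA-TK control 2) to 3115 (without FAP-TK control 2) with 1 array left out, 12443 as deposited, 5769 with median centring, 1536 with the offset, 0 with the filter, 6658 with weights, 1012 with the covariate, 383 without the 3 arrays, 212 with only the groups compared and 63 in the unmoderated test. Between the depleted groups, 1562 became 368 (without FAP depleted 1) to 1867 with 1 array left out, 14287, 3391, 18 with the filter, 4502 with weights, 606 without the 3 arrays, 1 and 0. Among all 4 groups, 1 member became 0 to 3 with 1 array left out, 0 as deposited, with the offset, with the covariate and without the 3 arrays, and 2 with the variance trend and with weights. The 2014 genes there became 828 (without FAP-TK control 3) to 2461, 14286 as deposited, 4998 with median centring, 20 with the filter, 7235 with weights, 536 with the covariate and 477 without the 3 arrays. For depletion, 0 genes became 0 to 4 in the FAP line with 1 array left out and 13 without the 3 arrays, 0 to 16 in the aSMA line and 0 to 1 in the interaction. Low signal limits Gbp3, Igtp, Irgm2 and Iigp1 most, which were near or below the negative-control median.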
